A study of Drosophila melanogaster with 6 samples.

Results

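The genes described here encode the DNA damage checkpoint and the machinery that handles broken chromosome ends in Drosophila. They are mre11, rad50, nbs, tefu, mei-41, mus304, grp, lok, p53 and Fancd2, and a probe set counted as theirs when its annotation, brought to current symbols, named that gene alone. All 10 genes were measured, by 14 of the 18769 probe sets of the array, among 11953 genes in all. Transcripts came from whole embryos at stage 11, and the 2 groups were wild type embryos of the Oregon R strain and fkh6 mutant embryos, which the labels also assign to Oregon R. The fkh6 allele affects fork head (fkh), the gene of the only FoxA protein of the fly. Each group held 3 independent collections of embryos, and each collection was hybridized to its own Affymetrix Drosophila Genome 2.0 array. The mutant embryos had passed through an embryo sorter, and the methods of the study can be read either way for the wild type embryos. Embryos of all tissues were pooled, so fewer cells of a type and less RNA per cell cannot be told apart.

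In a cell with a broken chromosome, the Mre11-Rad50-Nbs complex binds the ends and recruits the kinase ATM, which tefu encodes. Stretches of single-stranded DNA at stalled replication forks instead recruit the kinase ATR, which is encoded by mei-41, through its partner protein from mus304. These kinases switch on the effector kinases Chk1 (grp) and Chk2 (lok), which hold the cell cycle, and Chk2 acts on p53 to induce cell death genes. The fly embryo uses grp and mei-41 to slow its last rapid nuclear divisions before zygotic transcription starts, and the same ATM and Mre11 proteins protect fly telomeres from fusion. The protein from Fancd2 belongs to the Fanconi anaemia pathway, which repairs crosslinks between DNA strands.

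Most of these transcripts were less abundant in fkh mutants. Values are log2 values made with RMA (robust multi-array average), and differences are fkh minus wild type. A gene was called changed at a Benjamini-Hochberg adjusted p under 0.05 over all probe sets in limma and a fold change over 1.4, and a gene with several probe sets was represented by the brightest. By this rule 7 of the 10 genes were lower in fkh mutants (rad50, nbs, tefu, mei-41, mus304, grp and Fancd2), whereas 7.90% of all genes were called lower. None was called higher (7.81% of all genes were), and 1 gene, mre11, lay above 0 at an unadjusted p under 0.05 in limma, as 15.0% of all genes did. The median log2 fold change of the 10 was -0.53, and that of all genes was -0.07. In 9 of the 10 every fkh array lay below every wild type array, which was so for 27.5% of all genes. The calls depended on the test, the normalization and single arrays. With an equal-variance model fitted to each probe set alone, 1 of the 10 genes was lower (mei-41), and after cyclic loess 4 were (rad50, nbs, tefu and Fancd2). Leaving out wild type replicates 1, 2 or 3 in turn left 2, 4 and 0 genes called lower, and leaving out fkh replicates 1, 2 or 3 left 6, 6 and 4. Each of the 10 genes kept its sign in the 9 alternatives that recompute fold changes.

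**Figure D1:**
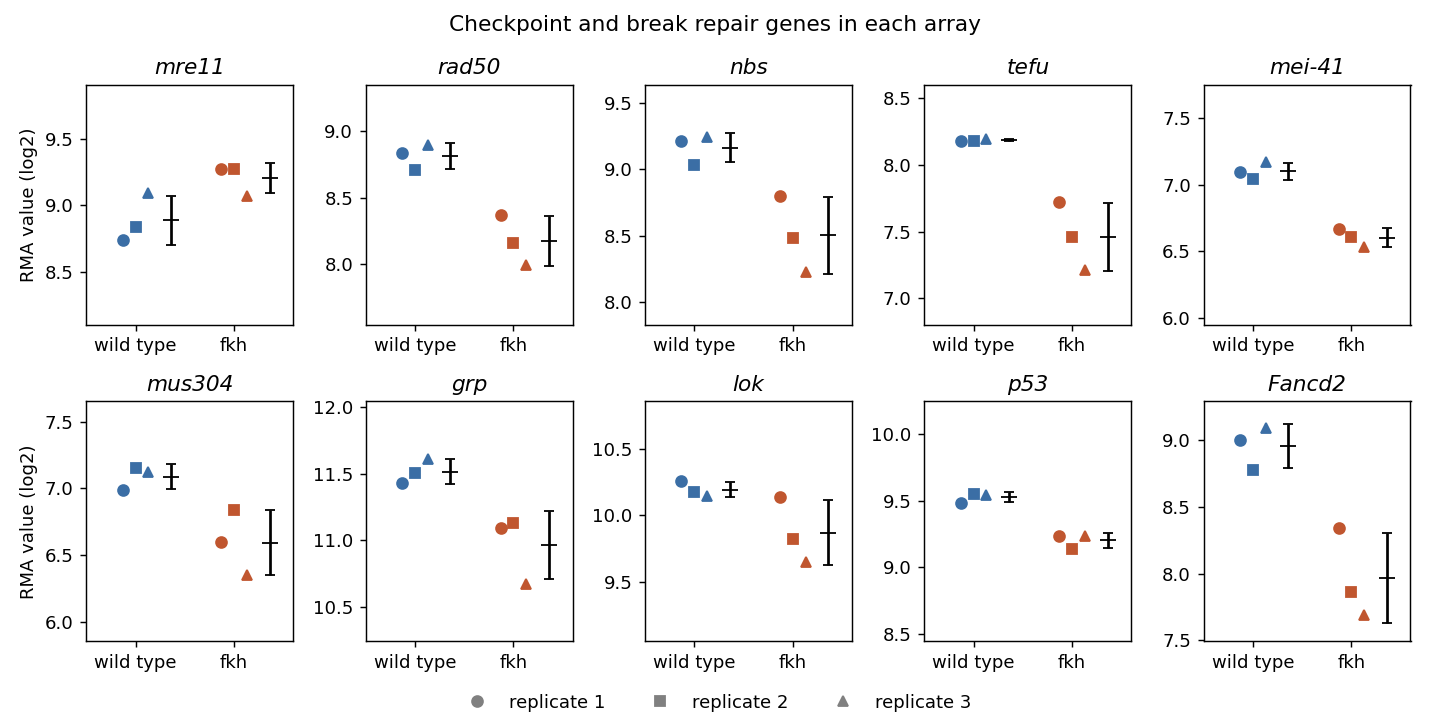
RMA values (log2, vertical axis) of the 10 genes in each array, with wild type in blue and fkh in orange, symbols for replicates, and black bars for the group mean and SD (n = 3 arrays). All panels span the same range of log2 units, and only in mre11 do the groups overlap.

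The 3 genes of the Mre11-Rad50-Nbs complex did not move together. Transcripts of rad50, which encodes the ATPase that bridges broken ends, were at 8.84, 8.71 and 8.90 in wild type replicates 1, 2 and 3 and at 8.37, 8.16 and 7.99 in fkh replicates 1, 2 and 3. The groups were well apart, and rad50 was 1.56-fold lower (-0.64 in log2 units, standard error 0.11, adjusted p = 0.010 from limma). The adaptor gene nbs was at 9.21, 9.04 and 9.24 in wild type and at 8.80, 8.49 and 8.23 in fkh. Its fall of 1.58-fold (-0.66 in log2 units, standard error 0.15, adjusted p = 0.026) was nearly the same size as that of rad50, with the mutant arrays spread more widely. Neither call was made without wild type replicate 1 or 3 (adjusted p between 0.051 and 0.11), and nbs was also not called without wild type replicate 2 or fkh replicate 2 (adjusted p = 0.060 and 0.055). In contrast, the nuclease gene mre11 was at 8.74, 8.83 and 9.09 in wild type and at 9.27, 9.27 and 9.07 in fkh. Here the lowest mutant array lay just below the highest wild type array, and the difference was not called (log2 fold change 0.32, 95% interval 0.05 to 0.59, adjusted p = 0.11).

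The ratio between genes within each array shows the unequal change directly, since a constant shift of an array does not alter it. Relative to its wild type mean, the log2 ratio of mre11 to rad50 was between -0.17 and 0.12 in wild type and between 0.83 and 1.04 in fkh, a mean of 0.96 ± 0.11 (SD, n = 3 arrays). That of mre11 to nbs was 0.98 ± 0.20 in fkh, again with no overlap between groups. The ratio of rad50 to nbs, by comparison, differed by 0.02 ± 0.10 and overlapped. Two-sided exact permutation tests gave p = 0.1 for both mre11 ratios, which is the smallest p that 3 arrays against 3 allow, and p = 0.7 for rad50 to nbs, or 0.15, 0.15 and 0.7 when adjusted over these 3 comparisons.

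**Figure D2:**
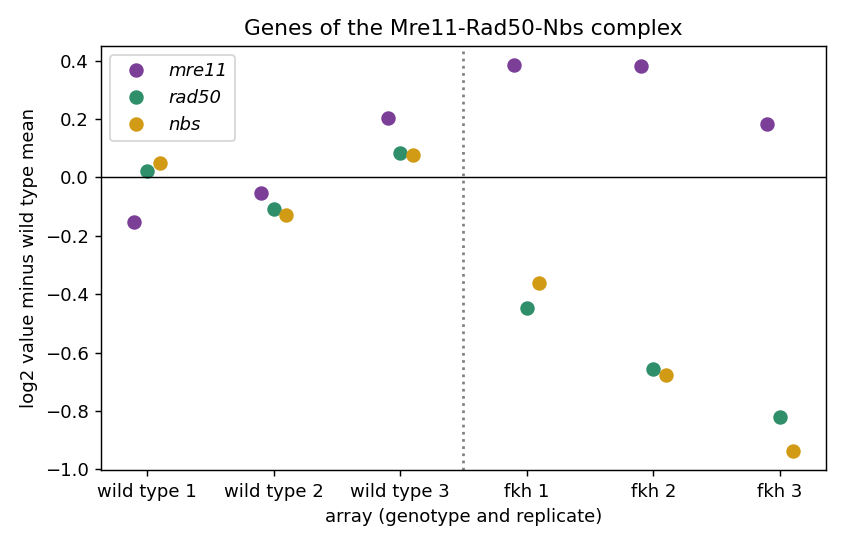
Log2 value minus the wild type mean (vertical axis) of mre11, rad50 and nbs in each of the 6 arrays (horizontal axis). In the fkh arrays rad50 and nbs lie side by side below 0 while mre11 lies above 0.

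All 3 genes of the kinases that start the checkpoint were lower in fkh mutants. For tefu, the ATM gene, the wild type arrays stood at 8.18, 8.18 and 8.19 and the fkh arrays at 7.72, 7.46 and 7.21. The wild type arrays were almost identical (SD 0.0066) and the mutants spread far more widely (SD 0.26). The difference came to 1.65-fold (-0.72 in log2 units, standard error 0.13, adjusted p = 0.011), and only 3.81% of all genes had a fold change as low or lower. Without wild type replicate 3 its adjusted p was 0.054. The ATR gene mei-41 fell by less but with the smallest error of the called genes: its values were 7.09, 7.04 and 7.17 in wild type and 6.67, 6.61 and 6.53 in fkh. Its fold of 1.41 lay just past the minimum (-0.50 in log2 units, standard error 0.08, adjusted p = 0.0062), so that the call was lost without fkh replicate 3 or without wild type replicate 3, where the adjusted p was 0.0071 and 0.041 but the fold was under 1.4. The partner of ATR, mus304, was at 6.98, 7.16 and 7.13 in wild type and at 6.60, 6.84 and 6.35 in fkh. It was also 1.41-fold lower, with a larger error (standard error 0.13, adjusted p = 0.044), and it was not called without any 1 of wild type replicates 1 to 3 or of fkh replicates 1 and 3. The study labelled tefu and rad50 in its own plot of falls on these arrays. DNA repair and the response to DNA damage also led the terms that it found enriched among genes lower on them. A general fall of checkpoint and repair genes, these 2 included, is therefore no independent finding.

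Among the effectors, only the Chk1 gene was called. Transcripts of grp were at 11.43, 11.50 and 11.61 in wild type and at 11.09, 11.13 and 10.67 in fkh, a fall of 1.47-fold (-0.55 in log2 units, standard error 0.13, adjusted p = 0.033). A call for grp was found with fkh replicate 1 or fkh replicate 2 left out, and not with any of the other 4 arrays left out. The Chk2 gene lok had values of 10.26, 10.17 and 10.15 in wild type and of 10.13, 9.82 and 9.65 in fkh. The groups did not overlap, although fkh replicate 1 lay just below the lowest wild type array, and lok was not called (log2 fold change -0.32, 95% interval -0.62 to -0.02, adjusted p = 0.14). For p53 the arrays were tight in both groups, at 9.48, 9.55 and 9.54 in wild type and at 9.24, 9.14 and 9.23 in fkh. This difference passed the adjusted p but not the fold minimum (log2 fold change -0.32, 95% interval -0.49 to -0.16, adjusted p = 0.023), so it was not called. The interval includes changes past 1.4-fold. Without wild type replicate 1, 2 or 3 or fkh replicate 2, the adjusted p of p53 in limma was above 0.05 (between 0.052 and 0.105). It was 0.041 and 0.019 without fkh replicates 1 and 3, and 0.096 after cyclic loess.

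The largest fall was in Fancd2. Its values were 9.004, 8.78 and 9.09 in wild type and 8.34, 7.87 and 7.69 in fkh, and the lowest wild type array stood clear of the highest mutant. This was a 1.99-fold difference (-0.99 in log2 units, standard error 0.18, adjusted p = 0.011), which only 1.84% of all genes matched or passed. The upper end of the 95% interval, -0.58, was itself beyond the fold minimum. The call was lost, with adjusted p = 0.050 and 0.055, without wild type replicate 1 or 3.

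Dimmer probe sets of 3 of these genes did not share the change. A second probe set of Fancd2 was between 4.76 and 4.79 in wild type and between 4.66 and 4.97 in fkh (log2 fold change 0.02, adjusted p = 0.89). Both other probe sets of grp were likewise not called (log2 fold changes -0.05 and 0.17, adjusted p = 0.78 and 0.37), nor was the other one of p53 (log2 fold change -0.08, adjusted p = 0.62). In every array the dimmer Fancd2 and p53 probe sets lay below the median of all probe sets, which was between 5.36 and 5.45 over the arrays, and the grp ones lay close to it. Whether such signals exceed background was not tested. When all probe sets of each gene were averaged, the log2 fold change was -0.14 for grp (adjusted p = 0.20) and -0.48 for Fancd2 (adjusted p = 0.0095), and neither was called.

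**Figure D3:**
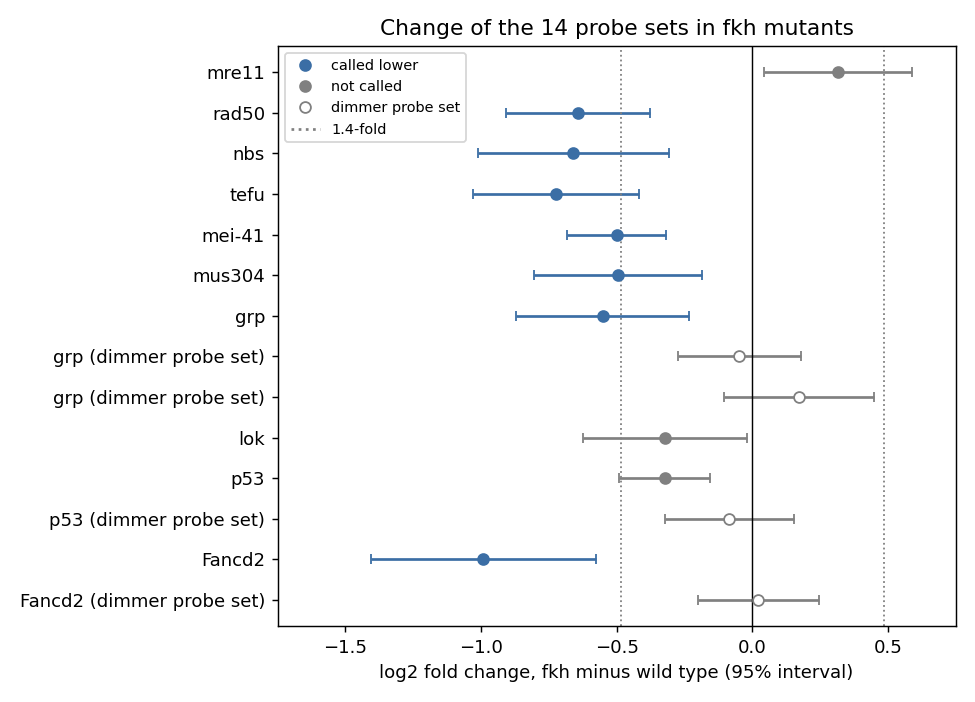
Log2 fold change, fkh minus wild type, of the 14 probe sets with 95% intervals from limma (horizontal axis), with called genes in blue, the dimmer probe sets as open symbols, and dotted lines at 1.4-fold. The intervals of the 7 called genes lie below 0, that of mre11 above 0, and those of the 4 dimmer probe sets include 0.

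The mutant collections differed from each other in a recurring way. Fkh replicate 3 held the lowest of the 3 mutant values in 9 of the 10 genes, all but p53, and fkh replicate 1 the highest in 8, all but mus304 and grp. As a median over the 10 genes, values lay 0.43, 0.44 and 0.78 below the wild type mean in fkh replicates 1, 2 and 3, while the wild type arrays lay between -0.04 and 0.07 from it. The SD among mutant arrays exceeded that among wild type arrays in 9 of the 10 genes, all but mre11. This was a feature of the series too, since the median SD over all genes was 0.076 in wild type and 0.16 in fkh.

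Further checkpoint and repair genes were also called lower more often than higher. Of 38 such genes with a probe set of their own, 16 were lower and 1 was higher, at the background of 7.90% and 7.81% given above, and their median log2 fold change was -0.49. Without either wild type replicate 1 or wild type replicate 3, 7 of them were lower, as were 7 after cyclic loess and 3 with the equal-variance model. Among the sliding clamp, RPA and mediator proteins that pass the signal to the kinases, 4 of 10 genes were lower and none was higher, also at an unadjusted p. Claspin, the mediator between ATR and Chk1, fell from 8.996, 8.88 and 9.27 in wild type to 8.20, 7.94 and 7.48 in fkh, a 2.26-fold difference that was larger than that of any of the 10 genes (adjusted p = 0.0081). The mediators mu2 and mus101, of which mus101 is the fly TopBP1, were 1.68-fold and 1.61-fold lower (adjusted p = 0.0063 and 0.017). The clamp subunit gene Hus1-like was the fourth, at 1.57-fold lower, whereas the 3 RPA genes, whose protein coats single-stranded DNA, were not called.

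Repair genes downstream of the break sensors were lower in part and never called higher. In homologous recombination 6 of 10 genes were lower, with a median log2 fold change of -0.54. Gen, a nuclease that cuts joined DNA molecules, was 1.75-fold lower, the helicase gene RecQ4 1.63-fold lower, and mms4, which encodes a partner of the Mus81 nuclease, 1.55-fold lower (adjusted p = 0.015, 0.0089 and 0.022). In end joining 2 of 5 were lower: DNAlig4, the ligase of this pathway, by 1.58-fold and Irbp, a subunit of the Ku ring, by 1.57-fold (adjusted p = 0.014 and 0.023). Crosslink repair and nuclease genes had 4 of 6 lower, with a median of -0.57. Here Fancl, the ubiquitin ligase that modifies Fancd2, was at 7.66, 7.80 and 7.98 in wild type and at 6.93, 6.69 and 6.94 in fkh. Its 1.95-fold fall was close to that of Fancd2 and had a smaller error (standard error 0.11, adjusted p = 0.0022). Fancm, a helicase of the same pathway, and the nuclease gene Snm1 were 1.62-fold and 1.52-fold lower (adjusted p = 0.042 and 0.0036).

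Of the 7 measured p53 targets, telomere genes and mitotic entry genes, 1 was called, and it was higher. Among all genes, 7.81% were called higher and 7.90% lower. Among p53 targets, 3 had a probe set that the annotation assigned to them alone, and rpr, hid and Xrp1 were not analysed here. The study itself reported rpr as higher in fkh mutants, on these arrays and by in situ hybridization. The cell death gene skl was 2.57-fold higher in fkh mutants (9.11, 9.28 and 9.07 in wild type and 10.56, 10.30 and 10.69 in fkh, adjusted p = 7.1e-04), and was called higher in all 15 alternatives that were run. The other 2 were egr (log2 fold change -0.01, 95% interval -0.24 to 0.23) and Corp, whose log2 fold change of -0.48 passed the adjusted p (0.0094) and not the fold minimum. Of the telomere proteins that cap chromosome ends, none of 3 was called in limma, while 2 (cav and HipHop) were below 0 at an unadjusted p under 0.05 (log2 fold changes -0.24 and -0.31), as were 22.4% of all genes, and peo was not (-0.02). The only measured gene of mitotic entry was twe, a Cdc25 phosphatase gene (log2 fold change 0.32, 95% interval -0.40 to 1.05, adjusted p = 0.52). The lists were chosen with results of these arrays known, so their counts are descriptions.

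**Figure D4:**
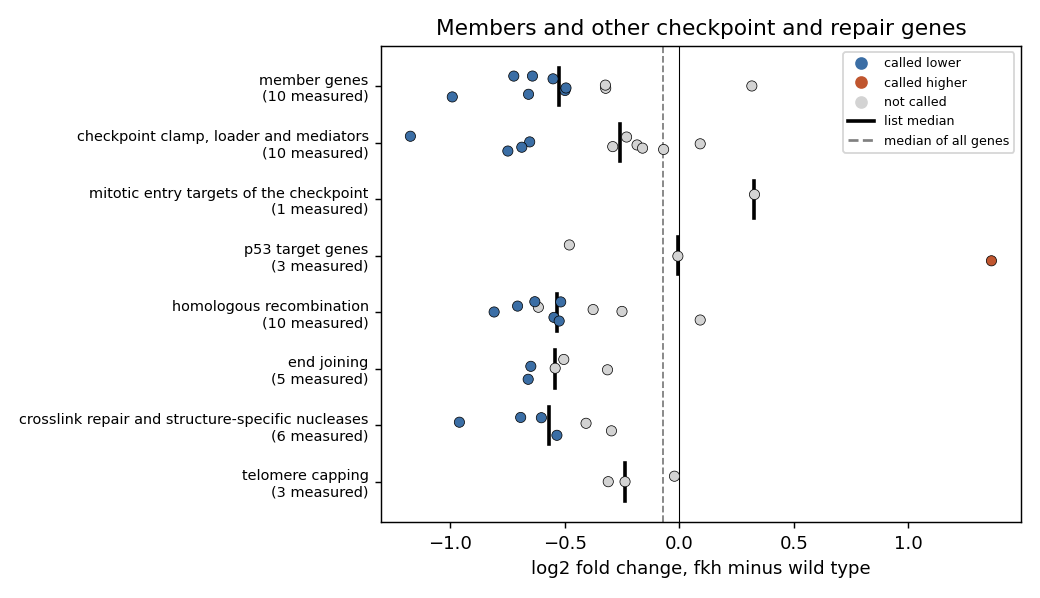
Log2 fold change of each gene (points, horizontal axis) in the 10 genes described here and in 7 further lists, with list medians as black bars and the median of all genes as a dashed line. Genes called lower lie in 4 of the 7 further lists, and skl is the only gene called higher.

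Markers of other cells and of other stages were measured in the same collections, and are read against the 7.90% of all genes called lower and 7.81% called higher. The 8 measured sarcomere genes, which mark differentiated muscle, were all higher in fkh mutants. Their median relative to the wild type mean was between -0.09 and 0.16 in wild type arrays and at 4.71, 5.31 and 2.90 in fkh replicates 1, 2 and 3, so that the mutant array with the lowest checkpoint values also had the lowest sarcomere values of the 3. Replication genes, markers of cycling cells, had 3 of 11 lower (dpa 1.49-fold, PCNA 1.48-fold and Cdc6 1.46-fold). At an unadjusted p under 0.05 in limma, 6 of the 11 were below 0, against 22.4% of all genes. The study names PCNA as unaffected on these arrays, unlike the call here (adjusted p = 0.0059 in limma). The medians of the replication genes, -0.22, -0.36 and -0.27 in the fkh arrays, were not lowest in replicate 3. In a list of 22 maternal egg genes, 1 was lower (tub) and none was called higher in limma. Above 0 at an unadjusted p under 0.05 were 2 of them (15.0% of all genes). The calls were no more frequent than among all genes. Whether each of these genes is loaded into the egg as RNA was not tested. Their median was highest in fkh replicate 2 (0.57) and lowest in fkh replicate 3 (-0.09). Neuroblast genes had 1 of 10 lower (dpn) and 1 higher (mira), which is close to the shares of all genes. Of these 10, 3 were below 0 and 1 above 0 at an unadjusted p under 0.05 in limma (22.4% and 15.0% of all genes). The part of muscle, cycling, maternal or neural transcripts in the fall of the checkpoint genes was not tested, and neither was a difference in age between the groups.

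**Figure D5:**
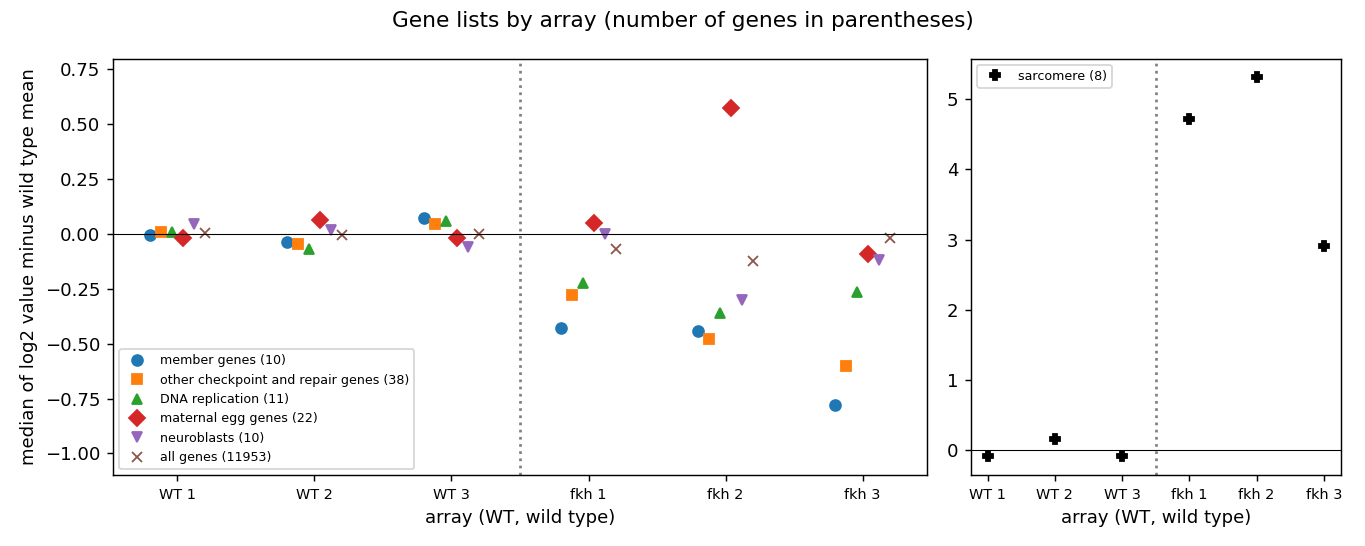
Median over the genes of each list of the log2 value minus its wild type mean (vertical axis) in each array, with sarcomere genes on a separate scale at right. The 10 genes lie at 0.43, 0.44 and 0.78 below 0 in fkh replicates 1, 2 and 3, and the sarcomere genes lie at 2.90 or more above 0 in all 3.

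The arrays allow only a loose check of the labels. The 8 measured patterning genes of the segmented embryo had values between 6.18 and 11.48 in all arrays, above the array medians. Of these 8, 2 (srp and hh) were called lower in fkh, against 7.90% of all genes. Such values do not fix the age of a collection, and whether the 2 groups were of the same age was not tested. Transcripts of fkh itself were at 10.23, 10.11 and 10.28 in wild type and rose to 10.83, 10.62 and 10.64 in the mutants (0.49 in log2 units, just past the fold minimum, adjusted p = 0.012). A change of the protein by the allele would not be seen by the probe set. The fkh gene lies on chromosome 3 of the fly, as do 5 of the 10 genes. Of these, 4 were called lower, against 3 of the 5 on other chromosomes, with medians of -0.66 and -0.50. Whether sequence differences between this chromosome in the mutant and in Oregon R touch any probe was not tested.

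Genes outside the set with the most similar profile were found by the distance of their centred values from the median profile of the 10 genes over the 6 arrays. The 5 nearest were Smyd4-4, CG13784, Atg101, Dbp73D and Akt, with root mean square distances between 0.031 and 0.045 in log2 units. All 5 were called lower, by 1.43-fold to 1.49-fold, which follows from the choice by profile and is no separate result. Of the 10 genes themselves, rad50 (0.066) and grp (0.068) lay nearest to the median profile and mre11 (0.44) and Fancd2 (0.26) farthest from it.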

How the data were processed

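Values were read from the table of log2 values that the authors deposited for the 6 arrays, 1 for each collection. The authors made these log2 values in Partek with RMA, which subtracts background, equalizes the intensity distributions of the arrays and condenses the probes of a set to 1 value. No version of these tools was found. No value was filtered out, and the number of arrays limits the precision.

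Probe sets were named with the annotation of the array, and RefSeq genes of assembly GCF_000001215.4 gave current symbols. Of these, 13647 named 1 gene, 402 several and 4720 none. Differences between fkh and wild type were fitted by lmFit and eBayes of limma 3.58.1 (R 4.3.3), with all 6 arrays and no covariate. Same-numbered arrays were not paired (correlations of deviations 0.072, 0.073 and -0.079). In 5 runs of simulated data with 200 changed probe sets, 84.4% of log2 changes of 1 were found, with 6.4 false calls per run. Smaller changes were not simulated, and the median log2 fold change of the 10 genes was -0.53. The share found therefore does not apply to changes of that size. Whether the number of false calls holds for the real arrays, where mutant collections varied more than wild type ones, was not tested. Tables were made with Python 3.11.15 and pandas 2.3.3.

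The members and lists were chosen with earlier results of these data known. Named genes are the 10 members, in each list the 3 called genes that changed most and at most 2 called genes that opposed its median, fkh, and the 5 genes of nearest profile. Hus1-like, egr, Corp, twe, cav, HipHop and peo were chosen after their values were seen. No sequence was used here.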

Additional observations from a re-analysis of the deposited data

How the results depend on the processing

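The alternatives were other tests, normalizations, filters and thresholds, and leaving out each array. Genes called lower among the 10 numbered 1 with an equal-variance model without pooling of the spread (mei-41) and 4 after cyclic loess, and among the 38 wider genes 3 and 7. Over all probe sets, 1151 were lower and 1162 higher; these were 538 and 406 with the equal-variance model and 690 and 1298 after cyclic loess (65.3% of calls higher, against 50.2%), and 1795 were lower without a fold minimum. Leaving out 1 array gave 0 to 6 of the 10 genes lower and none higher, a median log2 fold change of -0.63 to -0.43, 7 to 20 wider genes lower and 1 higher, and 705 to 1355 probe sets lower and 668 to 1522 higher. With the replicate number as a block, 5 of the 10 genes were lower (mus304 and grp were lost, adjusted p = 0.055 and 0.068) and 13 wider genes. After ribosomal protein scaling, 7 of the 10 were lower. Of the 10 genes p53 alone gained a call, without a fold minimum.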
